A study of Arabidopsis thaliana with 6 samples.

Results

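Polycomb proteins keep developmental genes silent. Polycomb repressive complex 2 (PRC2) places the histone mark H3K27me3 on such genes, proteins of the PRC1 type read that mark or add ubiquitin to histone H2A, and H3K27 demethylases remove it. In Arabidopsis leaves and seedlings this system holds flower, meristem and embryo genes off, while silent transposons are marked mainly by DNA methylation. Described here are 10 genes of this system, chosen by their locus: the PRC2 genes CLF, SWN, EMF2, VRN2, FIE and MSI1, the mark reader LHP1, the PRC1 genes RING1A and BMI1A, and the demethylase gene REF6. All 10 were among the 29670 loci measured, and the annotation gives BMI1A the symbol DRIP2 and LHP1 the symbol TFL2.

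RNA levels were compared between 2 untreated Arabidopsis thaliana genotypes, the reference accession Col and epiRIL12, with 3 Affymetrix arrays for each. Lines of the epiRIL type (epigenetic recombinant inbred lines) go back to Col plants crossed with a mutant, in this family of the CG methyltransferase gene MET1, and inherit methylation patterns of either parent in segments; epiRIL12 is 1 such line. The plants were 14 days old and came from long days, and the labels do not state whether replicate samples were grown or extracted separately, so the p-values rest on a spread that may be technical. The labels name both whole seedlings and rosette leaves: the mean log2 value of 7 leaf markers was 14.7 to 14.8 on every array, while that of 8 root markers was 5.99 to 6.28 in Col and 5.90 to 6.14 in epiRIL12, and none of these 15 markers was called. The root hair gene EXPA18 was lower on every epiRIL12 array (-0.33, SE 0.10, unadjusted p = 0.0166, limma adjusted p = 0.504). Such a separation, epiRIL12 below Col, was found at 6.89% of all loci, and a lower value with limma's unadjusted p under 0.05 at 3.72%. Of the 8 root markers, 5 had differences below 0 and 3 above. Array medians lay between 6.80 and 6.84 on the log2 scale of the deposited values, which has no stated background level, and the number of arrays limits the precision. Both arrays numbered 3 spread more over loci, with an SD of 2.37 in Col and 2.40 in epiRIL12, against 2.32 on each other array. Their lower quartiles were 4.78 and 4.71, against 4.85 to 4.90 on the others. In whole tissue, fewer cells of a type and less RNA per cell cannot be told apart.

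Transcripts of the 10 genes stood at close to the same level in both genotypes. None was called, that is, none passed a Benjamini-Hochberg adjusted p under 0.05 in limma's test across all loci, in which 289 of 29670 loci (0.974%) were called, 0.89% higher and 0.0843% lower in epiRIL12. None reached an unadjusted p under 0.05 either, as 7.04% of all loci did, and an ordinary equal-variance test and the authors' deposited p-values, both after adjustment, also called 0 of the 10. The differences, epiRIL12 minus Col, ran from -0.14 for FIE to 0.11 for RING1A on the log2 scale, with a median of -0.07, against -0.02 over all loci. Values were below 0 for 7 of the 10 genes, against 56.6% of all loci.

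These are bounds on the size of any change and do not show equal levels. The 95% interval of every one of the 10 differences lay within 0.5 log2 units of 0, that is within 1.41-fold either way, as did that of 59.9% of all loci. The spread between arrays of one genotype was below the median of all loci for 9 of the 10 genes. On all 6 arrays, 9 of the 10 had values above the array median, as had 13734 of all 29670 loci. BMI1A was the exception in level and FIE in spread.

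**Figure D1:**
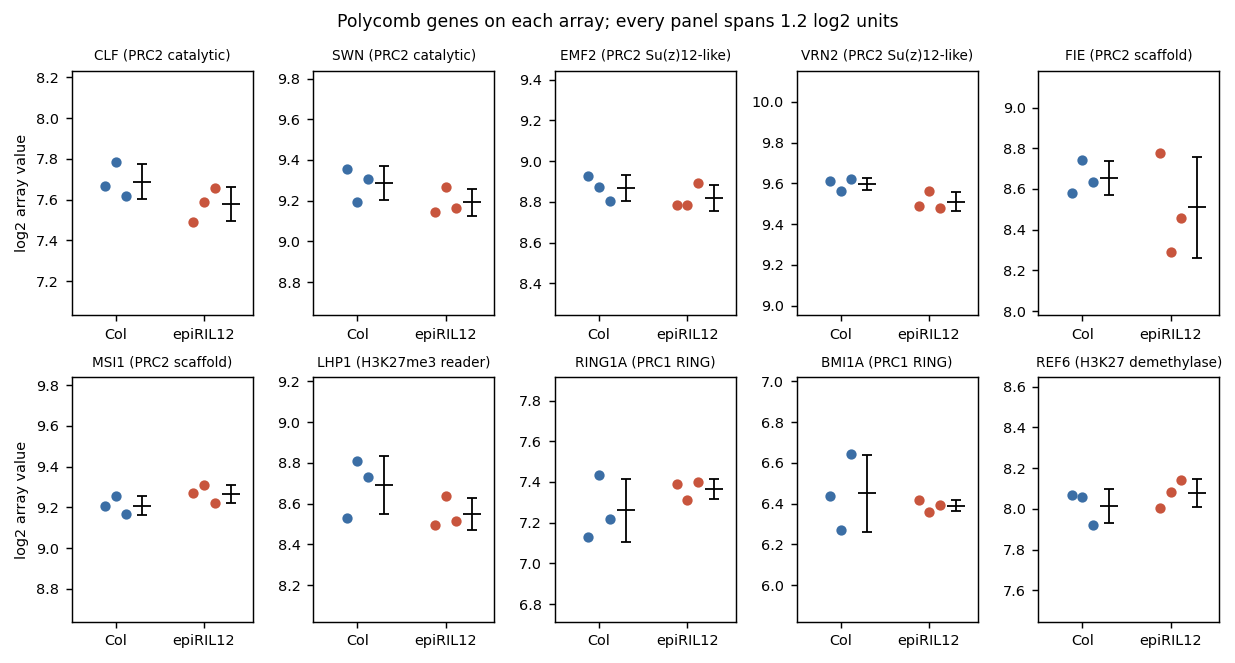
Log2 array values (y axis, every panel 1.2 log2 units high) of the 10 Polycomb genes in Col (blue) and epiRIL12 (red), 1 point per array, with the mean and SD of the 3 arrays at the right of each group. The groups overlap in 9 panels; in the VRN2 panel the epiRIL12 points lie just below the Col points.

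PRC2 takes its catalytic subunit from a small family, of which CLF and SWN serve in the plant body. CLF (AT2G23380), named for the curled leaves of its mutant, read 7.66, 7.78 and 7.62 on the Col arrays and 7.49, 7.59 and 7.66 on the epiRIL12 arrays. The groups overlap, and the difference was -0.11 (SE 0.10, 95% interval -0.34 to 0.12, limma adjusted p = 0.932). It was -0.06 without Col replicate 2, which had the highest value, and -0.15 without epiRIL12 replicate 3. SWN (AT4G02020), which can stand in for CLF in part, read 9.36, 9.19 and 9.31 in Col and 9.14, 9.27 and 9.17 in epiRIL12. Its groups overlap too: the difference was -0.09 (SE 0.09, interval -0.31 to 0.13, adjusted p = 0.951), or -0.06 without Col replicate 1 and -0.14 without Col replicate 2.

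EMF2 and VRN2 encode alternative Su(z)12-like subunits that decide which PRC2 form is built, EMF2 for holding back flowering and VRN2 for the lasting silence of FLC after cold. EMF2 (AT5G51230) read 8.93, 8.87 and 8.80 in Col and 8.78, 8.79 and 8.89 in epiRIL12. Its groups overlap: the difference was -0.05 (SE 0.09, interval -0.26 to 0.16, adjusted p = 0.981), and it was -0.02 without Col replicate 1 and -0.08 without epiRIL12 replicate 3. VRN2 (AT4G16845) read 9.61, 9.56 and 9.62 in Col and 9.49, 9.562 and 9.48 in epiRIL12. It was the only one of the 10 genes whose groups did not overlap, although the highest epiRIL12 value and the lowest Col value were 9.562 and 9.564; over all loci the groups did not overlap at 12.1%, with epiRIL12 lower at 6.89%. Its difference of -0.09 (SE 0.08, interval -0.29 to 0.11, adjusted p = 0.938) corresponds to a 1.06-fold lower level and did not pass the test.

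FIE and MSI1 are the WD40-repeat subunits, and each serves more than 1 PRC2 form. FIE (AT3G20740) read 8.58, 8.74 and 8.64 in Col and 8.78, 8.29 and 8.46 in epiRIL12. The epiRIL12 arrays thus lay on both sides of the Col arrays, with an SD of 0.25 against 0.08 in Col, and the difference had the widest interval of the 10 (-0.14, SE 0.14, interval -0.48 to 0.19, adjusted p = 0.949). Without epiRIL12 replicate 1, the highest of the 6 values, the FIE difference was -0.28, and without epiRIL12 replicate 2, the lowest, it was -0.04. MSI1 (AT5G58230), which is also a subunit of the chromatin assembly factor CAF-1, read 9.21, 9.25 and 9.17 in Col and 9.27, 9.31 and 9.22 in epiRIL12. Its groups overlap, and the difference was 0.06 (SE 0.08, interval -0.14 to 0.26, adjusted p = 0.974), or 0.04 without epiRIL12 replicate 2 and 0.08 without Col replicate 2.

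LHP1 (AT5G17690) binds H3K27me3 through its chromodomain. It read 8.53, 8.81 and 8.73 in Col and 8.49, 8.64 and 8.52 in epiRIL12. Col replicate 1 lay among the epiRIL12 values and the other Col arrays above them, and the difference was -0.14 (SE 0.11, interval -0.40 to 0.12, adjusted p = 0.914). Without Col replicate 1 it was -0.22 (adjusted p = 0.865), and without Col replicate 2, the highest value, -0.08 (adjusted p = 0.955).

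RING1A and BMI1A encode RING-finger proteins of the PRC1 type, which ubiquitinate histone H2A. RING1A (AT5G44280) read 7.13, 7.43 and 7.22 in Col and 7.39, 7.31 and 7.40 in epiRIL12, a difference of 0.11 (SE 0.11, interval -0.15 to 0.37, adjusted p = 0.953). All of its epiRIL12 values fell inside the range of Col, and the difference was 0.04 without Col replicate 1 and 0.19 without Col replicate 2. BMI1A (AT2G30580), which is also known for marking the stress factor DREB2A for breakdown, read 6.44, 6.27 and 6.64 in Col and 6.42, 6.36 and 6.39 in epiRIL12, again inside the Col range. Its difference was -0.06 (SE 0.12, interval -0.34 to 0.22, adjusted p = 0.981), and the sign rested on Col replicate 3, without which it was 0.04; without Col replicate 2 it was -0.15.

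REF6 (AT3G48430), a Jumonji enzyme that removes methyl groups from H3K27, works against PRC2. It read 8.07, 8.06 and 7.92 in Col and 8.01, 8.08 and 8.14 in epiRIL12. The groups overlap, with a difference of 0.06 (SE 0.09, interval -0.16 to 0.28, adjusted p = 0.976). It ran from 0.02 without Col replicate 3 to 0.10 without epiRIL12 replicate 1, and was 0.03 without epiRIL12 replicate 3. Thus no difference passed the test at the writers CLF and SWN or at this eraser, and without both arrays numbered 3 the REF6 value was -0.0181.

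The authors' deposited table gave differences of the same sign for all 10 genes, as it did for 25791 of all 29670 loci. They ran from -0.13 for LHP1 to 0.07 for REF6 on the log2 scale in the authors' deposited table, and the lowest of its unadjusted p-values was 0.170, for EMF2. That table rests on the same 6 arrays and is no independent measurement.

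Paralogs can replace each other in these complexes, so the balance of 5 pairs was compared within arrays. For each pair the log2 value of one gene minus that of the other was taken on each array; the level of this quantity depends on the probes, and only its change between genotypes is read. CLF minus SWN averaged -1.60 in Col (SD 0.16, n = 3) and -1.61 in epiRIL12 (SD 0.09), which is a change of -0.02 (exact two-sided permutation p = 1). EMF2 minus VRN2 changed by 0.04 (exact p = 0.6) and RING1A minus RING1B by 0.03 (exact p = 1). BMI1A minus its relative DRIP1 went from 0.49 ± 0.29 to 0.06 ± 0.42, a change of -0.44 (exact p = 0.3) that was wide on both sides.

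REF6 minus ELF6, the other well-known H3K27 demethylase gene of this family, read 0.29, 0.16 and 0.24 in Col and 0.33, 0.47 and 0.33 in epiRIL12. These groups did not overlap, and the change of 0.15 had an exact two-sided permutation p of 0.1, the smallest that 3 against 3 arrays allow, or 0.5 after adjustment over the 5 pairs. With 3 arrays a genotype no pair could have reached 0.05.

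**Figure D2:**
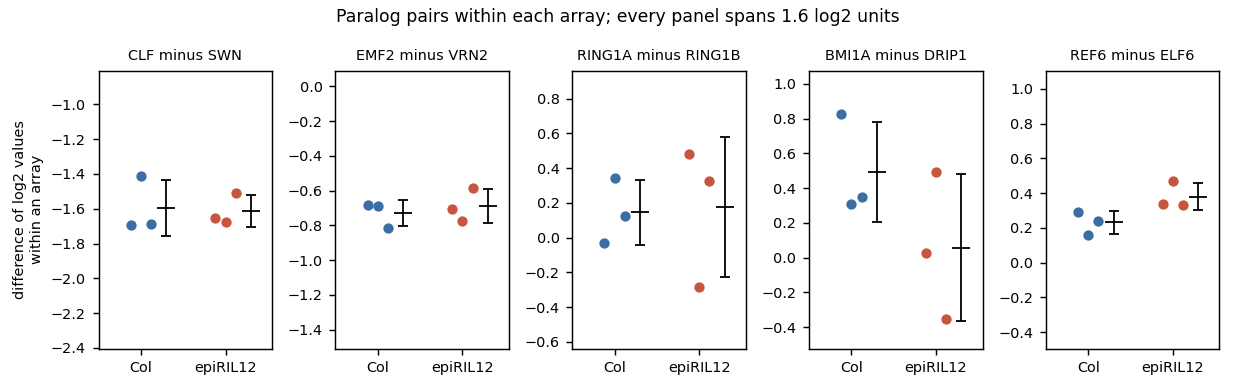
Difference between the log2 values of 2 paralogs within an array (y axis, every panel 1.6 log2 units high), 1 point per array in Col (blue) and epiRIL12 (red), with mean and SD of 3 arrays. REF6 minus ELF6 lies higher on all epiRIL12 arrays, by 0.15 on average, and the other 4 pairs overlap.

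Further genes of the Polycomb system, its antagonists and, as an H3K27-modifying pair outside it, ATXR5 and ATXR6 made 8 lists with 52 genes. None of the 52 was called, and none had an unadjusted p under 0.05 in limma (7.04% of all loci did); 22 differences were above 0 and 30 below, with a median of -0.01. Of the 52, 3 had an unadjusted p under 0.05 in the authors' deposited table (6.55% of all loci did), and none after adjustment. These 3 were FVE (authors' unadjusted p = 0.0138), MEA (0.0261) and AT3G63270 (0.0021). The groups did not overlap for 4 of the 52, against 12.1% of all loci. They were FVE and VEL1, higher in epiRIL12, and VIN3 and VAL1, lower; VAL1 is named because of that, after its values were seen.

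Among the 6 relatives of PRC2 and MSI1 subunits, FVE (AT2G19520), an MSI1-like WD40 gene of the autonomous flowering pathway, had the largest difference. It read 9.56, 9.62 and 9.58 in Col and 9.76, 9.73 and 9.78 in epiRIL12. All epiRIL12 arrays lay above all Col arrays by a small step, 0.17 (SE 0.08, interval -0.02 to 0.37, limma adjusted p = 0.776), which did not pass the test. MEA, a further catalytic subunit, had a mean of 5.003 in Col (SD 0.17, n = 3) and 4.86 in epiRIL12 (SD 0.10), and MSI2 differed by 0.09. The MEA signal was low, at percentile 23.4 to 29.9 of the loci on an array.

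In the VIN3 family, whose members join PRC2 for cold-induced silencing of FLC, VIN3 averaged 4.27 ± 0.06 in Col and 4.13 ± 0.06 in epiRIL12 (SD, n = 3; difference -0.13, SE 0.09, limma adjusted p = 0.889). VIN3 is switched on by long cold, and the labels name no long cold treatment. VIN3, VEL2 and VEL3 were below the lower quartile of every array, where a difference might not be seen. VRN5 differed by -0.09 and VEL1 by 0.07.

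The 8 relatives of PRC1 and H3K27me3 readers held the widest difference of the 52. DRIP1 (AT1G06770) read 5.61, 5.96 and 6.29 in Col and 6.39, 5.86 and 6.74 in epiRIL12. Its arrays scattered within both groups, which overlap, and the difference was 0.38 (SE 0.26, interval -0.25 to 1.005, limma adjusted p = 0.904). It was the one gene of the 52 whose interval reached beyond 2-fold, that is, beyond 1 on the log2 scale. RING1B differed by 0.08 and EMF1, a plant-specific repressor that works with both complexes, by -0.07.

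Of 11 genes for proteins that bring Polycomb complexes to DNA, the telomere-repeat binding genes TRB1 and TRB2 differed by 0.20 (SE 0.17) and -0.18 (SE 0.12) and the GAGA-binding gene BPC4 by -0.19 (SE 0.17). VAL1, whose B3-domain protein recruits PRC2 to FLC and to seed genes, read 9.45, 9.56 and 9.44 in Col and 9.33, 9.31 and 9.35 in epiRIL12. Its epiRIL12 arrays were all lower, by a small step of -0.15 (SE 0.09, limma adjusted p = 0.850). In the list of 4 further loci for H3K27 demethylases, ELF6 had -0.08 (SE 0.10), the unnamed locus AT5G46910 -0.06 and JMJ32 -0.03.

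No Polycomb partner or antagonist was called. Among 7 partners the differences ran from -0.04 for the ubiquitin protease gene UBP13 to 0.13 for AT3G63270, a list entry that the annotation leaves unnamed, and that of ICU2, the catalytic subunit of DNA polymerase alpha, was -0.03. Among 9 Trithorax-type and other antagonists, which keep Polycomb targets active, they ran from -0.10 for ULT2 to 0.08 for the methyltransferase gene ATX3, with ATXR7 at -0.08. The 95% intervals were -0.51 to 0.31 for ULT2 and -0.26 to 0.41 for ATX3. ATXR5 and ATXR6, which place the single methyl mark H3K27me1 in heterochromatin, had -0.12 (SE 0.12) and 0.04 (SE 0.09).

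**Figure D3:**
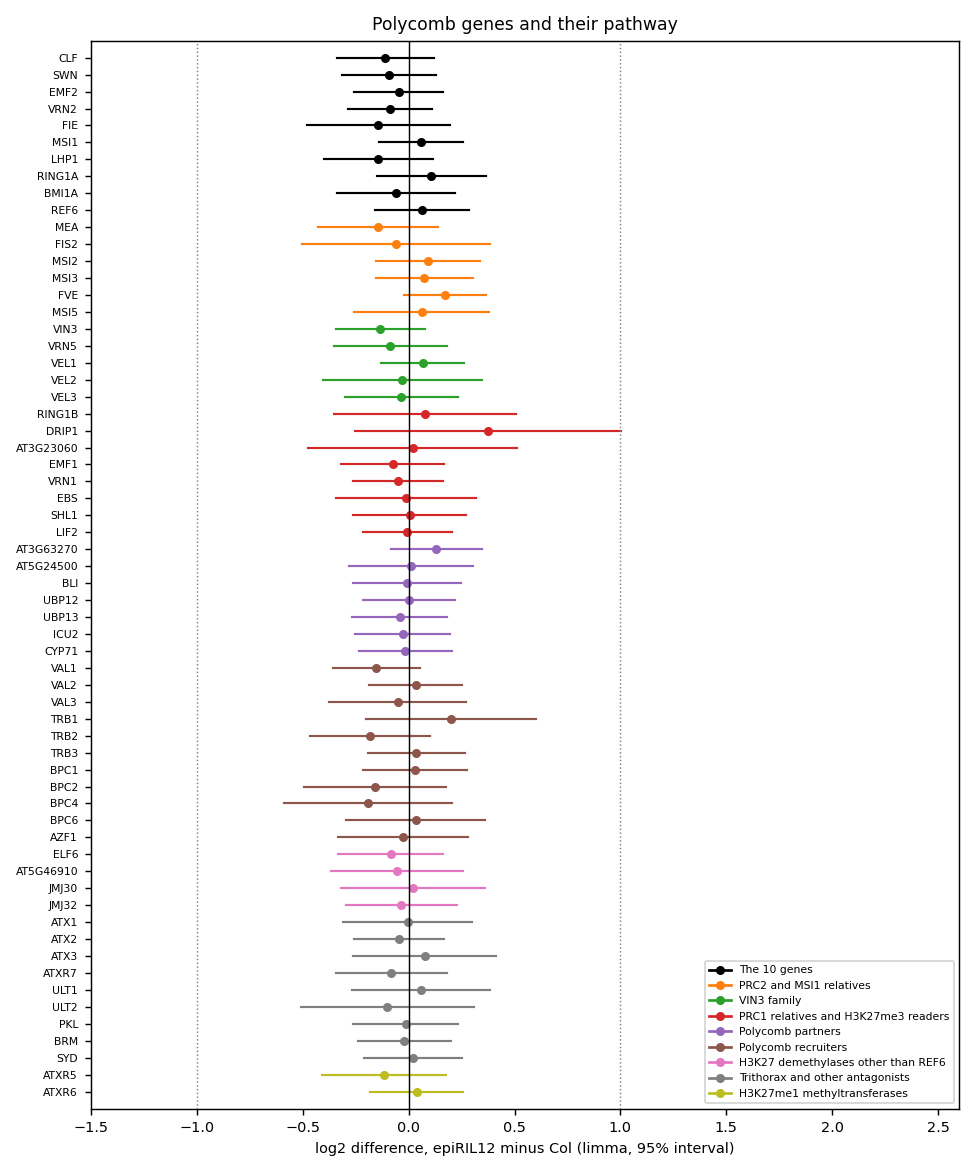
Log2 difference, epiRIL12 minus Col (x axis), with limma's 95% interval for the 10 Polycomb genes (black) and 52 further genes coloured by list; dotted lines mark 2-fold. The black intervals all lie within 0.5 of 0, and DRIP1 alone reaches past 1.

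Whether the genes that Polycomb silences differed was asked with 32 known H3K27me3 targets. None was called, over all loci or in the authors' deposited table after adjustment, and 2 had an unadjusted p under 0.05, 1 higher in epiRIL12 (3.32% of all loci) and 1 lower (3.72%). The median difference was -0.02, as over all loci, with 15 values above 0 and 17 below. Only 1 of the 32, MAF5, had values above the array median on all 6 arrays, against 13734 of all 29670 loci. The arrays of the 32 spread more: the median SD between replicates was 0.28, against 0.17 over all loci and 0.08 for the 10 Polycomb genes. The interval lay within 2-fold for 30 of the 32 (91.8% of all loci), so smaller changes from low levels might not be seen.

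The flower organ genes showed no called member. AG, a classic CLF target that is switched on in leaves of clf mutants, read 4.90, 5.38 and 5.67 in Col and 5.44, 5.62 and 5.19 in epiRIL12, with the groups mixed (0.10, SE 0.22, limma adjusted p = 0.985). SEP3, another flower gene held by PRC2, stood at 6.37 ± 0.22 (SD, n = 3) and 6.34 ± 0.24. AP3, for petals and stamens, had the largest difference of the targets, 0.49 (SE 0.23, interval -0.05 to 1.03, adjusted p = 0.771); it read 5.52, 5.80 and 5.38 in Col and 5.76, 5.87 and 6.53 in epiRIL12, so that epiRIL12 replicate 3 alone stood well above the rest. Of 4 pollen markers none was called and 3 had values below 0, among them VGDH1, lower on every epiRIL12 array (-0.24, SE 0.10, adjusted p = 0.726); their mean log2 value was 6.63 to 6.87 in Col and 6.50 to 6.79 in epiRIL12, and their part in the flower gene values was not tested.

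The flowering-time targets overlapped between genotypes. FT, the mobile flowering signal, read 6.44, 6.86 and 6.79 in Col and 6.18, 6.45 and 6.34 in epiRIL12. Col replicate 1 lay among the epiRIL12 arrays, and the difference was -0.37 (SE 0.14, unadjusted p = 0.0351, limma adjusted p = 0.648). FLC, the flowering repressor on which VRN2, VIN3 and LHP1 act after cold, scattered from 5.40 to 6.34 in Col and from 5.17 to 6.31 in epiRIL12 (difference -0.05, SE 0.35).

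Embryo and meristem targets gave the other value under an unadjusted p of 0.05. FUS3, a seed maturation regulator, read 5.31, 4.92 and 5.44 in Col and 5.95, 5.45 and 5.70 in epiRIL12. Its groups were the only ones of the 32 that did not overlap, by a gap between 5.44 and 5.45 (epiRIL12 lay above Col at 5.19% of all loci), and the difference of 0.48 (SE 0.18, unadjusted p = 0.0365) did not pass the adjusted test (limma adjusted p = 0.655). LEC2, which acts beside FUS3, had -0.10 (SE 0.12). The meristem genes STM and BP, both of the KNOX family, had 0.10 (SE 0.20) and 0.42 (SE 0.24, adjusted p = 0.849). Seed storage and oil body markers, 4 genes, had a mean log2 value of 5.12 to 5.78 in Col and 5.33 to 5.93 in epiRIL12; their part in the FUS3 value was not tested.

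**Figure D4:**
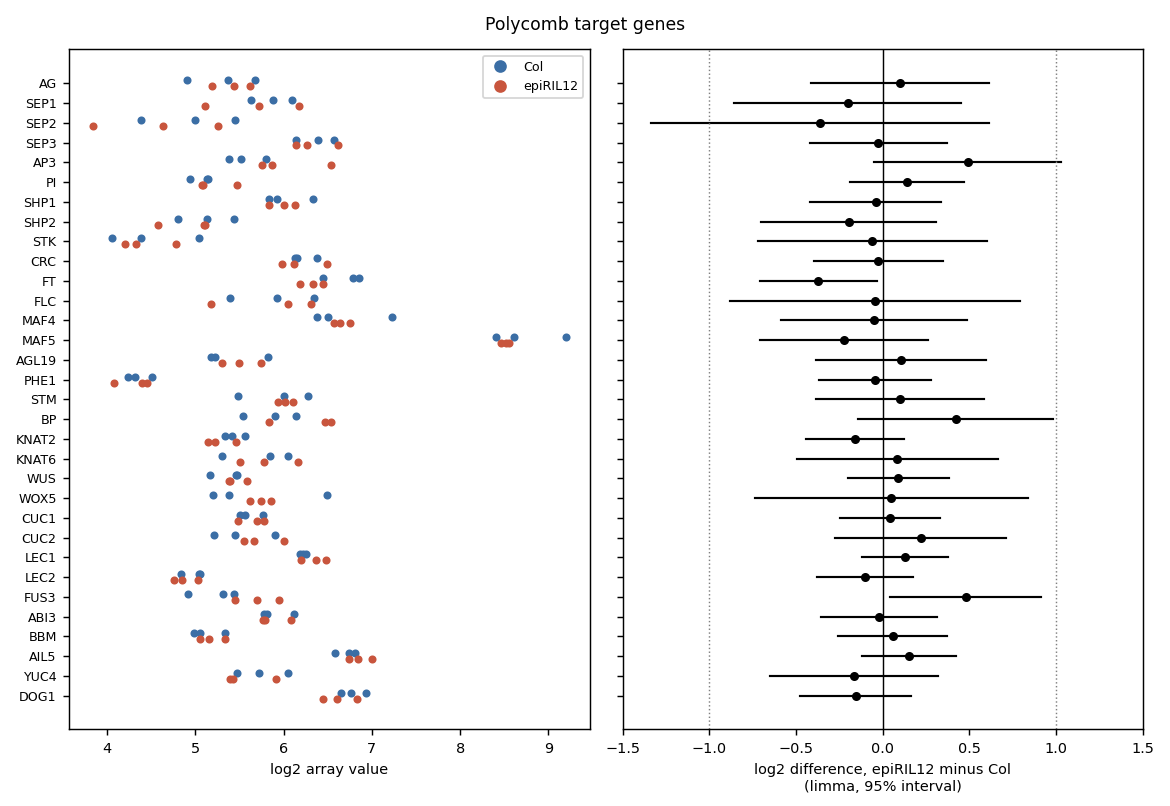
Left, log2 array values of 32 Polycomb target genes on the 3 Col (blue) and 3 epiRIL12 (red) arrays. Right, the log2 difference, epiRIL12 minus Col, with limma's 95% interval and dotted lines at 2-fold; FT and FUS3 are the 2 genes whose intervals exclude 0, and neither was called after adjustment.

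The genes around the 10 loci were compared as well, since an epiRIL inherits methylation states in blocks. None of the 20 loci directly next to them in locus order was called, with differences of -0.25, at AT5G17680 beside LHP1, to 0.38, at AT3G48425 beside REF6. Within 15 positions on each side, 300 loci in all, 2 were called (0.667%, against 0.974% of all loci), and both lay beside VRN2. The retrotransposon locus AT4G16870 (in general use, ATCOPIA4), 3 positions on, fell from 8.80 to 6.00 (log2 difference -2.80, SE 0.11, limma adjusted p = 6.9e-05). The immune receptor gene RPP5 (AT4G16950), 12 positions on, fell from 11.7 to 8.12 (-3.62, SE 0.12, adjusted p = 3.3e-05). VRN2 itself and its direct neighbours AT4G16840 (-0.17, SE 0.26) and AT4G16850 (-0.15, SE 0.18) were not called, nor was RPP4 (-0.20, SE 0.11), which sits between VRN2 and ATCOPIA4. On this higher-numbered side, only AT4G16940 (0.08, SE 0.16) of the 15 loci was above 0, while 56.6% of all loci were below 0. The lowest uncalled value there was -0.94 (SE 0.21, limma adjusted p = 0.198), at AT4G16960. Why this side leaned below 0 was not tested.

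For the other 9 genes the nearest called locus on the chromosome was farther off in locus order. It was 58 positions away for LHP1, where the retrotransposon EVD (AT5G17125) rose by 6.00, and 82 for RING1A, where the actin-related gene ARP9 fell by 1.19. For CLF it was 195 positions, for SWN 187 and for REF6 203, and for BMI1A, FIE, EMF2 and MSI1 it was 555 to 1571. These nearest loci were picked because they were called. In the annotation the coordinates of 5 of the 10 genes, CLF, FIE, MSI1, LHP1 and RING1A, overlap those of other genes. The array target was double-stranded and keeps no strand, so signal shared with the overlapping genes cannot be told apart.

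**Figure D5:**
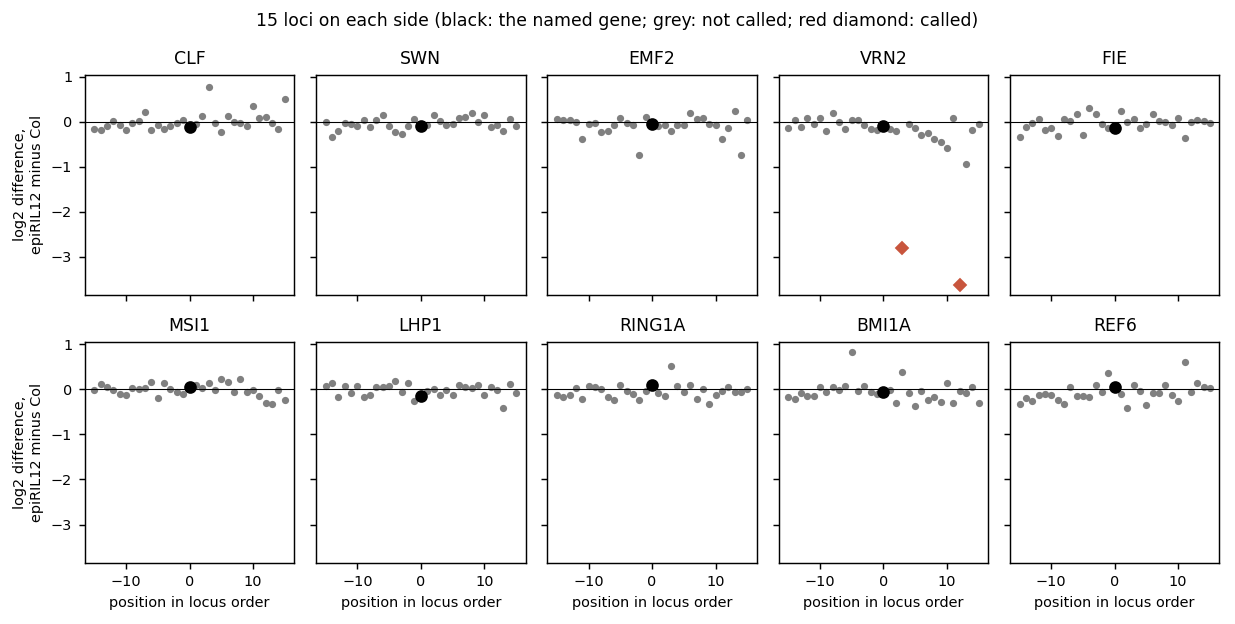
Log2 difference, epiRIL12 minus Col (y axis), of the 10 Polycomb genes (black, position 0) and the 15 loci on each side in locus order (x axis, positions and not distances); grey loci were not called. The only called loci (red diamonds) are ATCOPIA4 and RPP5, 3 and 12 positions from VRN2, at -2.80 and -3.62.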

How the data were processed

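RNA was freed of ribosomal RNA, copied with random primers, amplified and labelled as double-stranded cDNA for Affymetrix arrays, per the labels' protocols. The authors deposited 1 log2 value per locus and array; background correction, normalization, summarization and build were not given in the sources used. The authors' deposited table holds a log2 difference and an unadjusted p-value per locus, from a test that is not stated.

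The value table numbers its loci, so names were joined by position: the difference of group means followed the authors' log2 difference with Pearson's r of 0.967 across loci in place and 0.166 when shifted by 1. Names come from the RefSeq table of TAIR10.1, which held all 117 loci of the 10 genes and the 107 list entries; its coordinates are not printed, and 6 entries carry its symbol or locus there.

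The test at every locus was that of limma 3.58.1 under R 4.3.3 (lmFit, eBayes, two-sided, no filter, no pseudocount) with Benjamini-Hochberg adjustment over 29670 loci; the code was tested on simulated data. Paralog pairs were compared by exact permutation. Summaries used Python 3.11.15. The named genes were the 10, both genes of each pair, the 3 largest differences and all calls of each pathway list and of the targets, the direct neighbours (mostly given as a range), and FLC, AG, FT, SEP3, STM and LEC2. Genes named outside this rule, after their values were seen, were VAL1, VEL2, VEL3, MAF5, RPP4, ATCOPIA4, RPP5, EVD, ARP9, EXPA18 and VGDH1. The 10 genes and the lists were chosen with earlier results of these data known. Alternatives tried were quantile normalization, median centring, a block for replicate number, omission of the lowest 25% of loci, an equal-variance test without eBayes, eBayes with trend and robust settings, an adjusted p limit of 0.10, the authors' p-values and leaving out each array; leaving out both arrays numbered 3 was added after the data were seen.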

Additional observations from a re-analysis of the deposited data

How the results depend on the processing

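No alternative called any of the 10 Polycomb genes: the 15 settings gave 0 each, also for the 52 pathway genes and the 32 targets, and the lowest adjusted p of the 10 genes was 0.732, for VRN2 in the ordinary equal-variance test. Over all loci 289 were called, against 134 with the ordinary equal-variance test, 151 without both arrays numbered 3 and 138 by the authors' deposited p-values; the cause was not tested. The replicate block called 210 of all loci and 0 of the 10 genes. Deviations from the group means correlated at -0.04, -0.07 and 0.13 between samples of the same number, for numbers 1, 2 and 3. The correlation was 0.118 for Col 1 with epiRIL12 2 and 0.113 for Col 2 with epiRIL12 1. The numbers as a whole are therefore not taken to pair the samples, and no other pairing was fitted. A shared batch of the arrays numbered 3, which had the highest correlation, was not tested. For the pathway list, the authors' p-values and the 0.10 limit were added after the data were seen. Of 130 differences of the 10 genes under the alternatives, 127 kept their sign. The replicate block, the omission of low loci, eBayes with trend and robust settings and the equal-variance test leave the differences themselves unchanged. Under those settings no sign could change, so the count says little about them. Without both arrays numbered 3, BMI1A had 0.0347 and REF6 -0.0181. With 1 array left out at a time BMI1A ran from -0.15 to 0.0360, CLF minus SWN from -0.0692 to 0.0765, EMF2 minus VRN2 from -0.0107 to 0.0853, RING1A minus RING1B from -0.12 to 0.26, BMI1A minus DRIP1 from -0.65 to -0.23 and REF6 minus ELF6 from 0.10 to 0.18. With 3 arrays a genotype, small changes of the 10 genes might not be seen. With no stated background level, the same holds for changes of loci with low signal. The 0.5 log2 units bound the intervals of the observed differences and are not the smallest change that the adjusted test can call. That smallest change was not determined for the 10 genes. Larger differences can also go uncalled, as at AT4G16960 near VRN2 (-0.94, SE 0.21, limma adjusted p = 0.198). The SE there was above that of FIE (0.14), the largest of the 10 genes.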
